A study of Mus musculus with 12 samples.

Results

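The genes described here encode the enzymes that make serine and pass its carbon into the folate cycle. They are 10 genes, Phgdh, Psat1 and Psph of serine synthesis, Shmt1 and Mthfd1 of the cytosolic folate arm, and Shmt2, Mthfd2, Mthfd2l, Mthfd1l and Aldh1l2 of the mitochondrial arm. The members were chosen by the known function of their products and found in the count table by matching Ensembl identifiers to symbols. All 10 were among the 45706 genes counted and among the 17003 that passed the filter on low counts. The pathway was taken up because genes of the integrated stress response had already been seen to differ between these libraries. Every comparison may therefore carry that choice, so fold changes and adjusted p values are given here as the size of a difference against the spread of replicates, and nothing about the pathway is read from how many members passed.

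Serine is made from a glycolytic intermediate in a short chain of steps. Phgdh oxidises 3-phosphoglycerate, Psat1 transfers an amino group to the product, and Psph removes the phosphate. A hydroxymethyltransferase then moves a carbon unit from serine to tetrahydrofolate and leaves glycine, Shmt1 in the cytosol and Shmt2 in mitochondria. In mitochondria the unit is oxidised by Mthfd2 or Mthfd2l, released as formate by Mthfd1l or burned to carbon dioxide by Aldh1l2. Formate leaves the organelle and Mthfd1, a cytosolic enzyme with several activities, loads it onto folate again for purine and thymidylate synthesis. Several genes of serine synthesis and of the mitochondrial arm are known targets of the transcription factor Atf4 when cells lack amino acids.

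The data are 12 RNA sequencing libraries of cultured mouse cells, 3 biological replicates in each of 4 groups, and the strain is labelled C57BL/6. All cells descend from embryonic stem cells that carry GFP knocked into 1 allele of Sox1. Baseline denotes glial progenitors described as without Sox1 expression, grown as neural progenitor cells with bFGF, EGF and laminin and labelled as not sorted. Sox1 was nonetheless counted in each Baseline library, at 4.83, 6.00 and 5.43 CPM. Sox1posGP denotes the same kind of progenitor after dCas9-VP64, a catalytically dead Cas9 fused to a transcriptional activator, had been directed to the Sox1 promoter, and these cells were sorted. NSC denotes neuroepithelial cells that were not sorted, and NR denotes neural rosettes sorted for GFP. According to the paper, NSC came from a neural induction of embryonic stem cells, whereas the progenitors were expanded as lines. Differences of NSC and NR from Baseline therefore include this difference in culture. The dCas9-VP64 lines were clonal and were kept under blasticidin, and guide RNA vectors were selected with puromycin. The study states that its replicates came from separate days and separate clonal lines, but not which line gave which library or whether Baseline cells carried a guide. Between pairs of replicates, the chi-square per degree of freedom, larger with more spread beyond counting noise, was 1.586 to 2.16 in Sox1posGP. It was 1.716 to 7.199 in Baseline, 11.24 to 54.35 in NSC and 20.01 to 53.03 in NR. Depth also differed between groups, so these values do not measure spread alone. How much variation between lines the Sox1posGP replicates hold was not tested. The sample labels call Baseline unsorted, whereas the paper describes sorting of cells with and without Sox1 induction for this comparison. If the labels hold, sorting goes together with Sox1 activation, and their parts in a difference between Sox1posGP and Baseline cannot be told apart.

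Total counts ran from 4939268 to 18351483 in Baseline, from 3407066 to 6315574 in Sox1posGP, from 29046205 to 43095688 in NSC and from 16707006 to 34594885 in NR. Levels are given as CPM, the count relative to a library total that edgeR's TMM method has scaled. At these depths 3 counts in a library equal between 0.0671 and 0.869 CPM, and the lowest member value, 5.65 CPM for Aldh1l2 in NR replicate 2, lay well above that.

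The targeted gene, Sox1, had 4.83, 6.00 and 5.43 CPM in the Baseline libraries, 20.3, 20.9 and 21.7 in Sox1posGP and 48.6, 64.9 and 51.8 in NSC. The libraries labelled NR had 4.62, 20.001 and 19.2, so replicate 1 stood at the Baseline level although its label says GFP sorted. The 4 pluripotency markers (Pou5f1, Nanog, Zfp42, Dppa5a) summed to 2436, 1294 and 1854.5 CPM in the libraries labelled NR, to 126, 41.5 and 111 in NSC and to between 4.55 and 6.17 in Baseline and Sox1posGP, with Dppa5a the most abundant, and all 4 were called higher in NR than in NSC. The 4 mesenchyme markers (Col1a1, Col1a2, Pdgfrb, Twist1) summed to 4509, 609.9 and 3150.0 CPM in NR, to 1734, 549 and 1734 in NSC and to between 27.8 and 31.8 in the other libraries. Col1a1 was the most abundant of them in NSC and NR, and Twist1 in Baseline and Sox1posGP. Both sums were lowest in replicate 2 of NSC and of NR, whereas Twist1 was highest there (31.1 and 38.2 CPM). The 6 glial markers summed to between 3890.0 and 4257 CPM in Baseline and to between 1833 and 1919 in Sox1posGP, with Slc1a3 the most abundant, against 391 to 673 in NSC and 149 to 285 in NR, where Fabp7 was. In Sox1posGP Slc1a3, Fabp7 and Olig2 were lower than in Baseline (log2 fold changes -1.14, -1.10 and -1.05), Gfap and S100b were not called, and Aldh1l1, which is also counted among the cytosolic folate genes below, was higher.

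The sum of the 5 neuroepithelial markers was highest in NSC (808 to 985 CPM), but Sox2, 1 of them, was highest in Baseline (254, 308 and 291 CPM). In Sox1posGP Sox2 (log2 fold change -1.80) and Pax6 (-0.78) were lower than in Baseline, and Nes (1.34) and Sox1 (1.97) were higher. The sums of the 4 neuronal markers (141 to 494 CPM) and the 3 endoderm markers (20.7 to 53.9 CPM) hide members that moved apart. In NSC Tubb3 (log2 fold change 5.52) and Dcx (6.01) were higher than in Baseline and Map2 was lower (-2.37), and in Sox1posGP Dcx was higher (2.78). Foxa2 was higher in NSC (3.57), while Gata4 was lower there (-2.23). Sox17 had 17.4, 9.07 and 12.5 CPM in NR and at most 1 count in any Baseline or Sox1posGP library. No marker was at 0 in all 12 libraries. Marker levels thus differed from Baseline in NSC, NR and Sox1posGP. In Sox1posGP, glial and neuroepithelial markers of the same list moved in both directions. The part of cell makeup in the differences below was not tested. In bulk RNA, fewer cells of a type and less RNA per cell cannot be told apart.

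**Figure D1:**
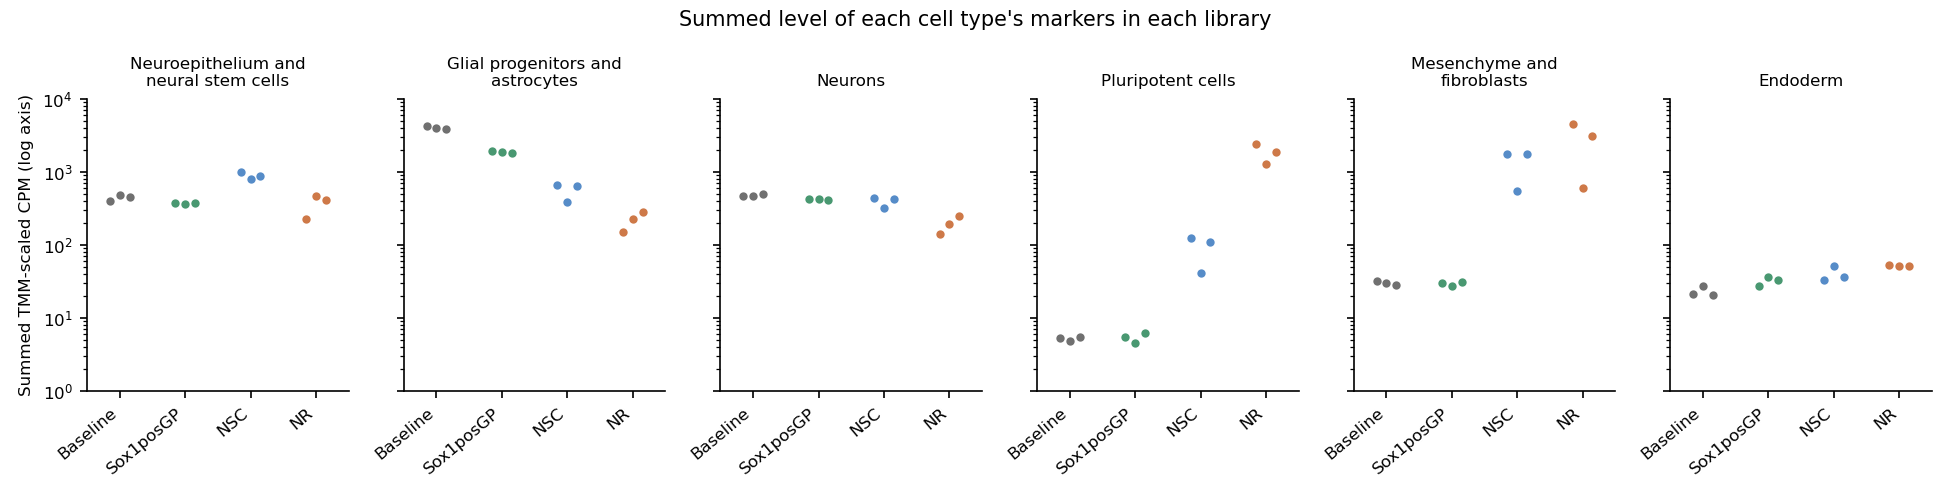
Summed TMM-scaled CPM of each cell type's marker list on a log axis, with 1 point per library and 3 libraries per group. The pluripotency sum is highest in the libraries labelled NR, the mesenchyme sum is high in NSC and NR with replicate 2 (the middle point) lowest, and the glial sum is highest in Baseline.

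Serine synthesis genes were most abundant in Baseline and lower in every other group. Phgdh (ENSMUSG00000053398, chr3:98313170-98339990 in GRCm38, minus strand), the first enzyme of the chain, had 1570.4, 1369 and 1399.6 CPM in Baseline, 620.4, 586 and 589.9 in Sox1posGP, 228, 236 and 213 in NSC and 201, 196 and 210.2 in NR. The 4 groups followed each other without overlap. Phgdh was 2.42-fold lower in Sox1posGP than in Baseline (log2 fold change -1.27, SE 0.08), 6.41-fold lower in NSC and 7.14-fold lower in NR. NR lay just below NSC (log2 fold change -0.16, SE 0.08, adjusted p = 0.111, edgeR quasi-likelihood F test, Benjamini-Hochberg adjusted), and that difference passed when NSC replicate 3 was left out (-0.22), without a filter (-0.23) and in a fit of these 2 groups alone (-0.20).

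Psat1 (ENSMUSG00000024640, chr19:15904678-15947337, minus strand), the aminotransferase, had 554, 518 and 528 CPM in Baseline, 386, 381 and 365 in Sox1posGP, 185, 198 and 179.7 in NSC and 283, 223 and 262 in NR. Of the serine synthesis genes it differed least between Sox1posGP and Baseline, by a log2 fold change of -0.50 (SE 0.09). NR lay above NSC without overlap.

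Psph (ENSMUSG00000029446, chr5:129765558-129787449, minus strand), the phosphatase of the last step, had 551, 465 and 479 CPM in Baseline, 111, 112 and 111 in Sox1posGP, 27.0, 23.2 and 23.6 in NSC and 56.8, 35.5 and 46.9 in NR. It was 4.48-fold lower in Sox1posGP than in Baseline (log2 fold change -2.16, SE 0.14) and 20.2-fold lower in NSC (-4.34, SE 0.15). The ratios between the transcripts of the chain differed between groups. Per kilobase of exon, Psph stood at 0.917 ± 0.0517 (SD, n = 3) of Psat1 in Baseline, at 0.290 ± 0.00851 in Sox1posGP, at 0.129 ± 0.0142 in NSC and at 0.176 ± 0.0205 in NR. The ratio of Phgdh to Psat1 fell in the same order of groups except that NR was lowest, from 4.63 ± 0.185 in Baseline to 2.72 ± 0.0715 in Sox1posGP, 2.06 ± 0.0456 in NSC and 1.36 ± 0.144 in NR.

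Among mitochondrial genes, Shmt2 and Mthfd2 followed the serine synthesis genes. Shmt2 (ENSMUSG00000025403, chr10:127517123-127522444, minus strand) had 1258, 1111 and 1154 CPM in Baseline, 415, 409 and 408 in Sox1posGP, 155, 173 and 151 in NSC and 245, 197 and 217 in NR. It was 2.86-fold lower in Sox1posGP than in Baseline (SE of the log2 fold change 0.09) and 7.35-fold lower in NSC, and the groups did not overlap. Mthfd2 (ENSMUSG00000005667, chr6:83305691-83325908, minus strand), the dehydrogenase and cyclohydrolase, had 342, 316 and 321 CPM in Baseline, 180.1, 167 and 162 in Sox1posGP, 84.1, 105 and 88.3 in NSC and 174, 128 and 139.5 in NR. Its values in NR overlapped those of Sox1posGP and lay above those of NSC.

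Aldh1l2 (ENSMUSG00000020256, chr10:83487450-83534140, minus strand), which burns formyl-tetrahydrofolate to carbon dioxide and yields NADPH, had the widest range. It had 399.9, 425 and 402 CPM in Baseline and 90.0, 91.5 and 86.4 in Sox1posGP, but 12.8, 5.77 and 12.0 in NSC and 20.6, 5.65 and 17.6 in NR. It was 4.58-fold lower in Sox1posGP (log2 fold change -2.19, SE 0.34) and 39.8-fold lower in NSC (-5.31, SE 0.39). Replicate 2, the library lowest in collagen genes, was also the lowest in Aldh1l2 in both NSC and NR; the part of mesenchymal RNA in the remaining signal was not tested. Without NR replicate 2 the difference between NR and NSC passed with a log2 fold change of 0.88, against 0.49 (SE 0.35, adjusted p = 0.272, edgeR quasi-likelihood F test, Benjamini-Hochberg adjusted) with all libraries. It also passed without a filter (0.41) and after thinning to the smallest library (0.76), and it was smaller without NSC replicate 2 (0.19), NR replicate 1 (0.18) or NR replicate 3 (0.29). In Baseline, where Aldh1l2 was highest, the mesenchyme markers summed to at most 31.8 CPM. That sum does not bear on the source of the Aldh1l2 signal in NSC and NR.

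Mthfd1l (ENSMUSG00000040675, chr10:3973118-4167081, plus strand), the formate-releasing synthetase, had a different order of groups. It had 128, 126 and 131 CPM in Baseline, 62.8, 68.5 and 62.9 in Sox1posGP, 67.9, 74.1 and 69.2 in NSC and 133, 99.3 and 92.6 in NR. Sox1posGP and NSC were both below Baseline and overlapped each other, while NR replicate 1 lay above all Baseline values. NR was called lower than Baseline (log2 fold change -0.24, SE 0.11), but the call ended with upper-quartile scaling (-0.16), DESeq2 size factors (-0.18), the DESeq2 Wald test (-0.18) or at least 10 counts per library (-0.11), and without NR replicate 2 (-0.18), NR replicate 3 (-0.16) or Baseline replicate 3 (-0.22). Without NR replicate 1 the difference was -0.45.

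Mthfd2l (ENSMUSG00000029376, chr5:90931117-91021368, plus strand), the paralog of Mthfd2, did not follow it. Its 56.0, 47.2 and 46.3 CPM in Baseline compare with 58.2, 66.9 and 63.5 in Sox1posGP, 51.8, 53.7 and 54.1 in NSC and 24.1, 37.1 and 31.5 in NR. Sox1posGP lay above Baseline by a log2 fold change of 0.33 (SE 0.14, adjusted p = 0.0790, edgeR quasi-likelihood F test, Benjamini-Hochberg adjusted), and that call ended without Baseline replicate 2 (0.27) or 3 (0.28) or without Sox1posGP replicate 2 (0.28) or 3 (0.32). NR was below NSC without overlap (log2 fold change -0.78, SE 0.13). Mthfd2 stood at 12.5 ± 0.797 (SD, n = 3) times the level of Mthfd2l per kilobase in Baseline, at 5.17 ± 0.631 in Sox1posGP, at 3.31 ± 0.365 in NSC and at 9.61 ± 3.74 in NR, where the 3 libraries gave 13.8, 6.58 and 8.45.

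Of the cytosolic genes, Mthfd1 did not fall in any group. Mthfd1 (ENSMUSG00000021048, chr12:76255298-76319803, plus strand) had 131, 121 and 126 CPM in Baseline and 134, 125 and 119 in Sox1posGP, with overlapping values and equal means (126 ± 5.11 and 126 ± 7.52, SD, n = 3). It had 211, 263 and 213 CPM in NSC and 429.6, 312 and 328 in NR, 1.82-fold (log2 fold change 0.86, SE 0.12) and 2.82-fold (1.498, SE 0.12) above Baseline. Mthfd1 was the member with the largest rise in both comparisons.

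Shmt1 (ENSMUSG00000020534, chr11:60788104-60811718, minus strand) varied least of the 10. It had 130.0, 132 and 133 CPM in Baseline, 144, 155 and 148 in Sox1posGP, 91.4, 103 and 92.3 in NSC and 180.1, 131 and 146 in NR. The Sox1posGP values lay above those of Baseline without passing (log2 fold change 0.18, SE 0.11, adjusted p = 0.204, edgeR quasi-likelihood F test, Benjamini-Hochberg adjusted), and with upper-quartile scaling (0.25), with at least 10 counts required in every library (0.25) or in a fit of these 2 groups alone (0.23) the difference passed. NSC was 1.38-fold below Baseline. NR was called higher than Baseline by a log2 fold change of 0.21 (SE 0.10) with overlapping values, and the call ended without NR replicate 1 (0.04), NR replicate 3 (0.21) or any of the 3 Baseline libraries (0.16 to 0.22). It also ended without a filter (0.22), in a fit of these 2 groups alone (0.15) and after thinning (0.17), while with at least 10 counts per library the difference was 0.35.

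**Figure D2:**
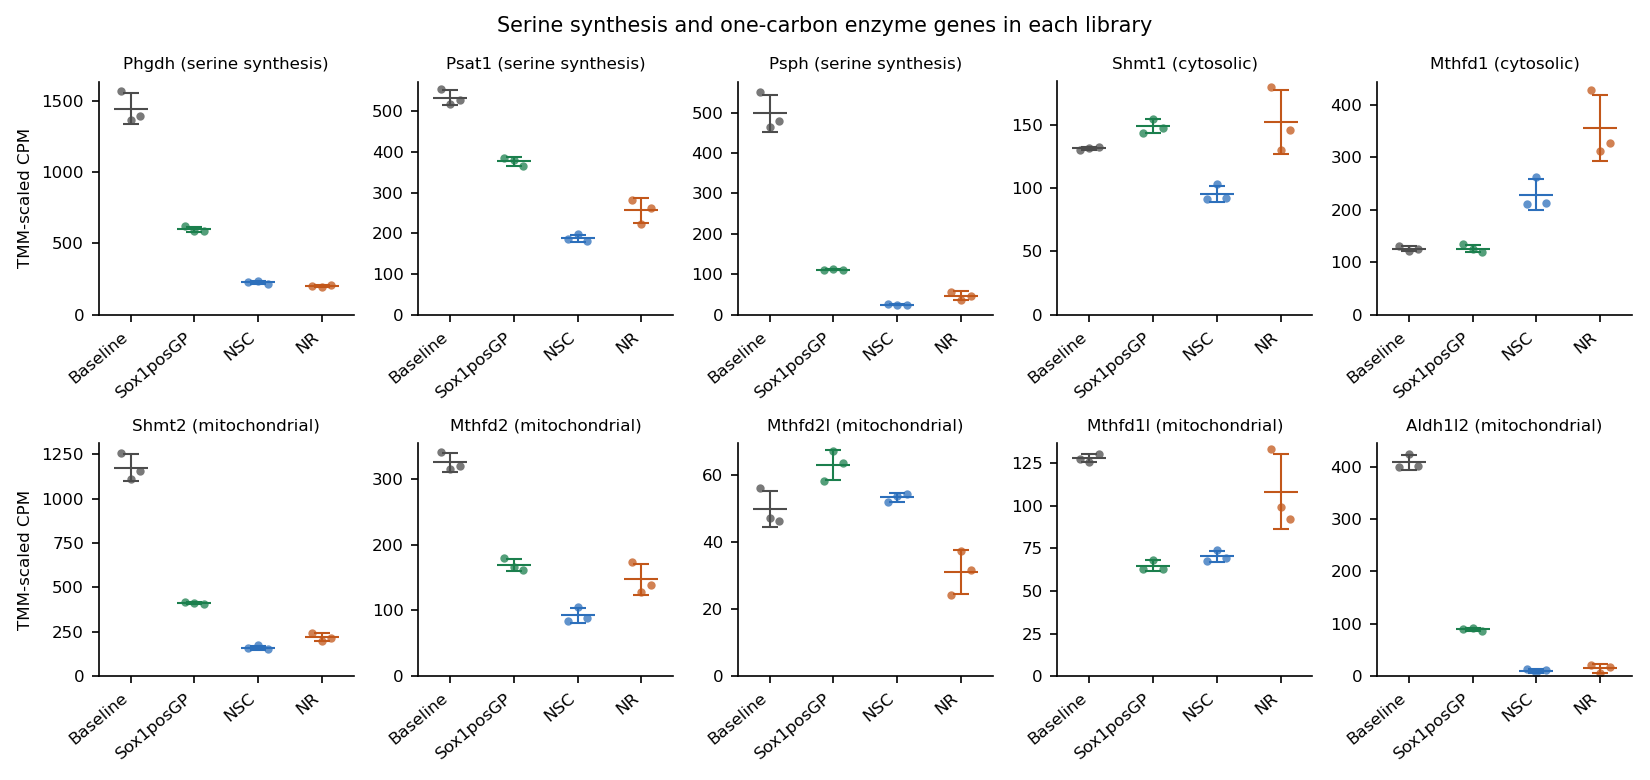
TMM-scaled CPM of each of the 10 genes on a linear axis from 0, with 1 point per library, a bar for the group mean and whiskers for the SD of 3 replicates. Phgdh, Psph, Shmt2 and Aldh1l2 step down from Baseline to Sox1posGP to NSC, whereas Mthfd1 is equal in Baseline and Sox1posGP and higher in NSC and NR.

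With Sox1posGP against Baseline, which asks how progenitors differ once Sox1 has been switched on, 7 of the 10 genes were called lower and 1 higher at an adjusted p under 0.1, where 22.7% of all tested genes were called lower and 21.6% higher. The 3 values of one group lay wholly above or below those of the other for 9 members, as for 52.7% of all genes. The median log2 fold change was -0.96 for the members and 0.0 for all genes. By arm the median was -1.27 for serine synthesis, 0.09 for the cytosolic genes and -0.98 for the mitochondrial ones. The adjusted p of the 7 lower genes reached at most 0.000462, for Psat1 (edgeR quasi-likelihood F test, Benjamini-Hochberg adjusted).

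Baseline was also compared with the neuroepithelial cells, an earlier kind of neural cell that expresses Sox1. In NSC 8 members were called lower and 1 higher than in Baseline, with 33.7% and 44.4% of all genes called in these directions. For 9 members the groups did not overlap, against 77.3% of all genes. The median log2 fold change of the members was -1.66 and that of all genes 0.20. In the libraries labelled NR 8 members were called lower and 2 higher, with 34.1% and 45.6% of all genes called, and 8 did not overlap, against 77.8% of all genes. There the medians were -1.10 for the members and 0.19 for all genes. Without NR replicate 1, whose Sox1 level goes against its label, Shmt1 was the member whose call against Baseline was lost. These 3 comparisons share the Baseline libraries, so a high or low Baseline value moves all of them together. The median of serine synthesis stood at -2.68 in NSC and -2.84 in NR, that of the mitochondrial arm at -1.82 and -1.15, and that of the cytosolic arm at 0.20 and 0.85.

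NR against NSC compares libraries labelled as sorted rosettes and as unsorted neuroepithelial cells, with the marker levels given above. Of the members 7 were called higher and 1, Mthfd2l, lower in NR, against 30.0% and 26.6% of all genes, and 9 did not overlap, against 56.7%. The rises were small, between log2 fold changes of 0.45 for Psat1 and 0.91 for Psph, with a median over members of 0.55 and over all genes of 0.01. In NR replicate 1, Mthfd1, Shmt1, Mthfd1l, Mthfd2, Shmt2, Aldh1l2, Psat1 and Psph each had their highest NR value and Mthfd2l its lowest. This library had the highest pluripotency and mesenchyme sums of NR and the lowest Sox1 and neuroepithelial levels, and the part of its cell makeup in this was not tested.

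**Figure D3:**
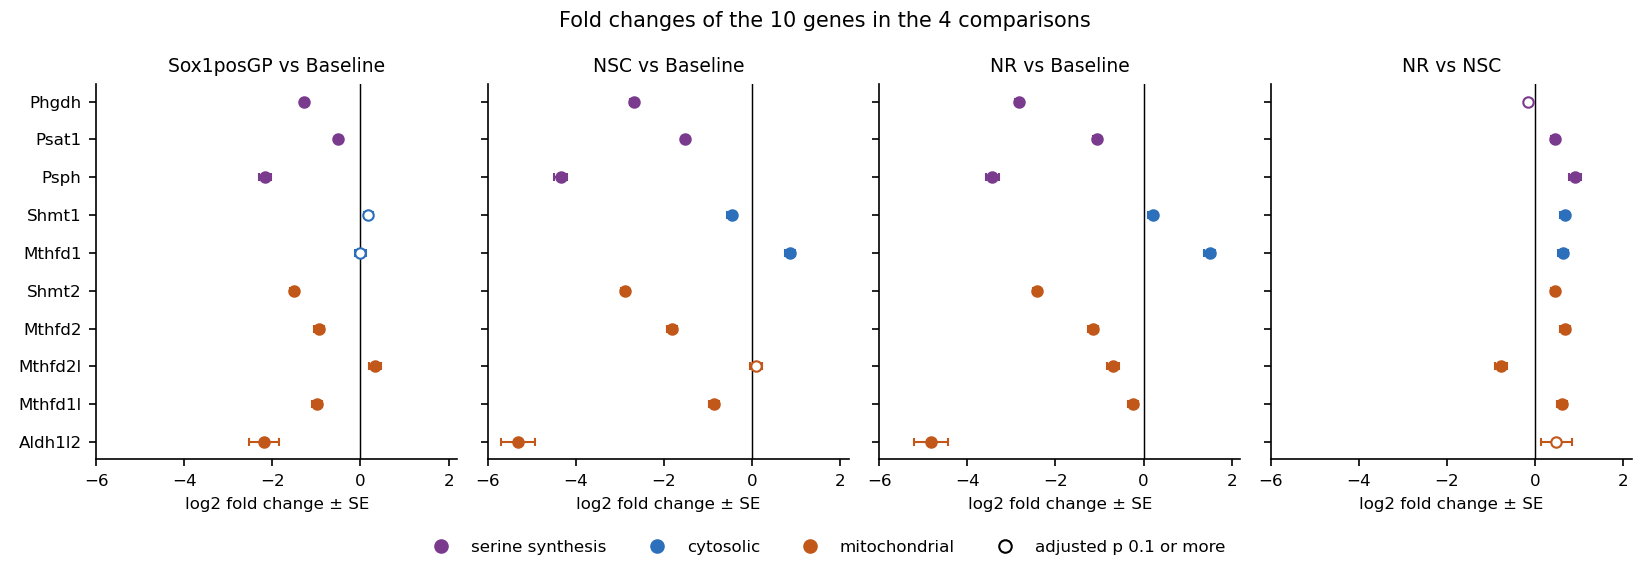
Log2 fold change (points) with its standard error (whiskers) for each of the 10 genes in the 4 comparisons, filled where the adjusted p was under 0.1. Serine synthesis and most mitochondrial genes lie left of 0 against Baseline, Mthfd1 lies at 0 in Sox1posGP and to the right in NSC and NR, and most genes lie slightly to the right in NR against NSC.

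Summed by arm and corrected for exon length, the transcripts of the mitochondrial genes were lower relative to the cytosolic ones outside Baseline. Shmt2 carried much of this sum, with 378 ± 24.4 CPM per kilobase (SD, n = 3) of it in Baseline, and Mthfd2l went the other way in Sox1posGP, from 7.50 ± 0.809 to 9.46 ± 0.660. The 3 serine synthesis genes together had 822 ± 58.6 CPM per kilobase (SD, n = 3) in Baseline, 355 ± 9.14 in Sox1posGP, 141 ± 6.75 in NSC and 152 ± 11.2 in NR. The 5 mitochondrial genes had 562 ± 27.9, 217 ± 3.49, 103 ± 7.08 and 144 ± 18.9 in the same order. The 2 cytosolic genes had 62.2 ± 0.964, 66.8 ± 1.696, 76.2 ± 8.30 and 119 ± 20.8.

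The mitochondrial sum was 9.42, 8.83 and 8.83 times the cytosolic sum in the Baseline libraries, 3.27, 3.19 and 3.29 times in Sox1posGP, 1.39, 1.298 and 1.38 times in NSC and 1.15, 1.24 and 1.24 times in NR. Both sums come from the same library, so the ratio does not depend on how libraries were scaled. Groups did not overlap, and NR lay closest to NSC. Shmt2 made up 91.7% ± 0.545 (SD, n = 3) of the summed Shmt1 and Shmt2 level per kilobase in Baseline, 77.5% ± 0.772 in Sox1posGP, 67.6% ± 0.428 in NSC and 64.4% ± 1.29 in NR. On the log2 CPM scale, uncorrected for length, Shmt2 exceeded Shmt1 by 3.16 ± 0.11, 1.46 ± 0.06, 0.74 ± 0.03 and 0.53 ± 0.08 in that order of groups. Mthfd1l differed from Mthfd1 by 0.03 ± 0.05 in Baseline, -0.96 ± 0.12 in Sox1posGP, -1.69 ± 0.11 in NSC and -1.72 ± 0.09 in NR, the last of which overlap. These sums and ratios are descriptions and carry no test.

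**Figure D4:**
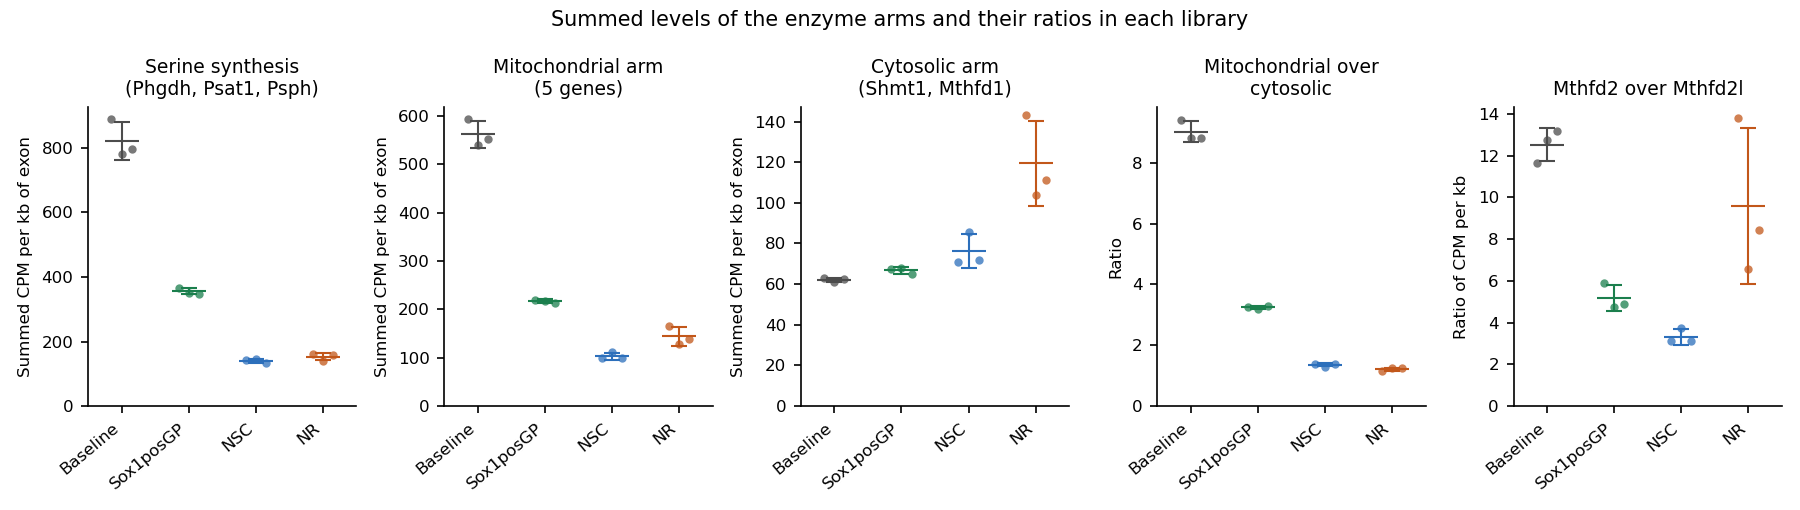
Summed CPM per kilobase of exon of serine synthesis, mitochondrial and cytosolic genes, the ratio of the mitochondrial to the cytosolic sum, and the ratio of Mthfd2 to Mthfd2l, with 1 point per library, bars for means and whiskers for the SD of 3 replicates. The ratio of the arms falls from about 9 in Baseline to about 3 in Sox1posGP and near 1 in NSC and NR.

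Within a group the order of levels per kilobase differed too. In Baseline Phgdh was highest (582 ± 43.7 CPM per kilobase, SD, n = 3), followed by Shmt2 (378 ± 24.4), Psat1 (125 ± 4.37) and Psph (115 ± 10.6), with the last pair overlapping. Mthfd1 was next to last (28.4 ± 1.15), level with Mthfd1l (28.9 ± 0.518) and above Mthfd2l (7.50 ± 0.809). In the libraries labelled NR Mthfd1 (80.2 ± 14.4) was level with Phgdh (81.5 ± 2.83) and above Psat1 (60.2 ± 7.12), while Psph had come down to 10.7 ± 2.46 and Aldh1l2, at 1.95 ± 1.05, was the lowest.

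Some counts can hold reads of other genes. The processing notes name RSEM, which divides ambiguous reads by estimated abundance, but the strand setting and the annotation are not stated. Phgdh has processed pseudogenes, and among annotated transcripts at least 95% identical over at least 100 bases the most counted was Gm7901, 98.75% identical over 1597 bases. Gm7901 fell from 52.7 ± 6.05 CPM (SD, n = 3) in Baseline to 23.2 ± 0.784 in Sox1posGP, 8.17 ± 0.297 in NSC and 6.64 ± 0.197 in NR, the same steps as Phgdh at a small share of its level. Psph shares 452 exon bases with Cct6a on the opposite strand, a chaperonin gene that had 913 ± 79.3 CPM in Baseline, 988 ± 28.7 in Sox1posGP, 856 ± 59.9 in NSC and 1296 ± 201 in NR. How many reads counted for Psph came from Cct6a was not tested. All of Psph in NSC was 24.6 ± 2.08 CPM, against 499 ± 45.8 in Baseline. Cct6a was not called different between these groups (log2 fold change -0.09). It was called higher in NR than in Baseline (0.50) and than in NSC (0.60). Psph was lower in NR than in Baseline (-3.43) but higher than in NSC (0.91), and that rise may be affected. Aldh1l2 shares 1056 exon bases with D10Wsu102e on the opposite strand, which had 51.0 ± 3.77 CPM in Baseline, 108 ± 2.76 in Sox1posGP, 84.2 ± 11.7 in NSC and 59.9 ± 7.07 in NR. In NSC and NR, where Aldh1l2 had 10.2 ± 3.84 and 14.6 ± 7.92 CPM, reads of the neighbour could make up more of its count than in Baseline, and its fold changes there and its difference between NR and NSC may be affected. Shmt1 shares 184 exon bases with Smcr8 on the opposite strand, which had at most 1303 counts in any library. How many reads counted for Shmt1 came from Smcr8 was not tested. Mthfd2l matched other genes over at most 291 bases.

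The chromosomes that carry the genes were not level in all comparisons. In Sox1posGP against Baseline the median log2 fold change over well-expressed genes (mean log2 CPM over 3) differed from that of all such genes by 0.21 on chromosome 10 (470 genes; Shmt2, Mthfd1l, Aldh1l2), by -0.23 on chromosome 12 (342 genes; Mthfd1) and by 0.13 on chromosome 19 (328 genes; Psat1), and by at most 0.09 on chromosome 3, 5, 6 or 11. Mthfd1 at its unchanged level therefore stood above the median of its chromosome, and Shmt2 and Aldh1l2 fell on a chromosome whose median rose. Against Baseline the offset on chromosome 19 was 0.31 in NSC and 0.38 in NR, and on chromosome 12 it was 0.16 and 0.13. Mthfd1, on chromosome 12, rose in both. The offset was -0.10 and -0.17 on chromosome 3 (Phgdh), -0.13 and -0.15 on chromosome 6 (Mthfd2) and -0.11 and -0.11 on chromosome 11 (Shmt1). On chromosome 10 it was 0.04 and 0.17, and on chromosome 5 -0.01 and 0.05. In NR against NSC the offset of each of these chromosomes was at most 0.03 in size.

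RefSeq promoter windows (GRCm38.p6, 250 bases before to 50 after the start) were at hand for 9 of the 10 genes, with a pair of windows for Psat1. They are shown for genes that fell together (Phgdh, Psat1, Mthfd2, Shmt2) and for Mthfd1, which did not, each read 5′ to 3′ on the strand of its gene, with CCAAT or its reverse complement ATTGG in capitals.
Phgdh, chr3:98339920-98340219, minus strand: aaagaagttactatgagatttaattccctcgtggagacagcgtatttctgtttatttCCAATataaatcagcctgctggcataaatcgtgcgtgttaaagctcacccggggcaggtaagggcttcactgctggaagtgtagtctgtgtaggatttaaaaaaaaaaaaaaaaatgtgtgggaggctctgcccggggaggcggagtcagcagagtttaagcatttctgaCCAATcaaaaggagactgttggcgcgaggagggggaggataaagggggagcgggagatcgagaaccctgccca
Psat1, chr19:15925010-15925309, minus strand: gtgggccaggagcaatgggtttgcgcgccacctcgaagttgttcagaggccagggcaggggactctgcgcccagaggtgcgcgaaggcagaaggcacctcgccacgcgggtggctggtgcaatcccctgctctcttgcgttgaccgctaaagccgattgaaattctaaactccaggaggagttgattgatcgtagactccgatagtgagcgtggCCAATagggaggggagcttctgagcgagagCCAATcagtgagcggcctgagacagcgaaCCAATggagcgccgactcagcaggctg
Mthfd2, chr6:83317555-83317854, minus strand: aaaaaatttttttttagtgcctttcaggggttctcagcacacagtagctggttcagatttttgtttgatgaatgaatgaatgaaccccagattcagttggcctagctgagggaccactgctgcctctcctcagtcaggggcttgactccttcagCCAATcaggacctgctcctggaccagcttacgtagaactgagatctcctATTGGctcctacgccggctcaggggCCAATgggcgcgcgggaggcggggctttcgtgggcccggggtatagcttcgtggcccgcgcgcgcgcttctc
Shmt2, chr10:127522395-127522694, minus strand: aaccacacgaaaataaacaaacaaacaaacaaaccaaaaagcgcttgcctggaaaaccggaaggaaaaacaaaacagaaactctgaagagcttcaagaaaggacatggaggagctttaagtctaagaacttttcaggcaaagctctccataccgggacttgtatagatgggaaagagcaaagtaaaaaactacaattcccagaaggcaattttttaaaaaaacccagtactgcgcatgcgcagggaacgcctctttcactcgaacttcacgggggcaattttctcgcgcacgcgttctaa
Mthfd1, chr12:76254982-76255281, plus strand: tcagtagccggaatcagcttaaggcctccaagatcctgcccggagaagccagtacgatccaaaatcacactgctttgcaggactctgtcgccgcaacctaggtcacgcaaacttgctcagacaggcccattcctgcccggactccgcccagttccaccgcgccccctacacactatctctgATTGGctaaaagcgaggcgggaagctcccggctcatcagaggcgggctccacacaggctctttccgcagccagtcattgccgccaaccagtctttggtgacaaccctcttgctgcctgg
The letters TGATGNAA, the core of a composite site known to be bound by Atf4 with C/EBP factors, occur on either strand in 3.97% of 32851 such windows and in none of the 10 windows of the members. The E-box CACGTG, bound by Myc among others, occurs in 7.15% and likewise in none. CCAAT, looked for after the sequences had been seen, occurs in 37.4% of windows, at least 2 times in 11.7% and at least 3 times in 3.37%. It was found 3 times in the Mthfd2 window and in the Psat1 window shown, 2 times each for Phgdh and Psph, 1 time each for Mthfd1 and Shmt1, and not in the windows of Shmt2, Mthfd2l and Mthfd1l or the second window of Psat1. A match is a string of letters and not a bound site, and its absence says only that the letters are not in these 300 bases.

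Genes around the pathway were read from lists, each by its counts of called genes. Against Baseline, 21.6% of all tested genes were called higher and 22.7% lower in Sox1posGP, 44.4% and 33.7% in NSC, and 45.6% and 34.1% in NR, and nothing is read from the counts of a list beside these shares. Of 8 tested genes of mitochondrial folate and glycine cleavage (Dmgdh failed the filter), 3 were lower and 1 higher in Sox1posGP than in Baseline, with a median log2 fold change of -0.06 against 0.0 for all genes. The 1 higher gene became 0 without Baseline replicate 2 or Sox1posGP replicate 1 or 3. Dld, the lipoamide dehydrogenase shared with other complexes, fell most (log2 fold change -1.39, SE 0.09), followed by Sfxn1 (-0.51), the carrier that brings serine into mitochondria, and Mtfmt (-0.43, with overlapping values). In NSC 6 were lower and 2 higher (median -1.15 against 0.20), and in NR 5 were lower and 2 higher (median -0.53 against 0.19). Gldc, the decarboxylase of glycine cleavage, rose from 78.2 ± 8.86 CPM (SD, n = 3) in Baseline to 267 ± 8.38 in NSC and 351 ± 49.8 in NR. Sardh, which oxidises sarcosine, went from 74.8 ± 5.63 to 2.46 ± 1.05 and 4.60 ± 2.74, with replicate 2 again the lowest of both groups.

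Of the 11 genes reported from the cytosolic folate list 7 were higher (21.6% of all genes) and 1 lower (22.7%) in Sox1posGP, with a median log2 fold change of 0.49, 4 higher and 4 lower in NSC (0.05) and 5 higher and 3 lower in NR (0.35). The 1 lower gene became 0 to 2 under alternatives, 0 among them without Baseline replicate 1 or 3 or Sox1posGP replicate 1 or 3. In Sox1posGP the rises included Aldh1l1 (log2 fold change 1.59, SE 0.51), the cytosolic counterpart of Aldh1l2, which stayed at or below 3.17 CPM there, Mthfs (1.13, SE 0.36) and Tyms (0.83, SE 0.09), the thymidylate synthase. Folr1, a folate receptor, had at most 3 counts in any Baseline or Sox1posGP library but 2.01, 3.38 and 2.38 CPM in NSC and 35.6, 22.9 and 31.6 in NR, at least 4.14-fold and 48.0-fold higher than 3 counts in the shallowest Baseline library, and the medians did not change with Folr1 at these bounds. Ggh fell in NSC (-1.79, SE 0.13) and Slc19a1, the reduced folate carrier, in NR (-1.70, SE 0.12).

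Of 6 genes of purine synthesis, which consumes formyl-folate, Gart (log2 fold change -0.51, SE 0.11) and Adsl (-0.42, SE 0.10) were lower in Sox1posGP, against 22.7% of all genes, and 0 were higher, against 21.6% (median 0.01). Under alternatives 0 to 1 were higher, 1 among them without Baseline replicate 1. In NSC 3 were higher and 3 lower (median 0.12), with Atic lowest (-1.11, SE 0.15), and in NR 3 were higher and 2 lower (median 0.42), with Gart (1.29, SE 0.11) and Ppat (1.02, SE 0.11) highest.

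Of the methionine cycle and transsulfuration, the branch that turns homocysteine and serine into cysteine stood out. Cth, its second enzyme, had 178, 158 and 143 CPM in Baseline and 8.97, 7.85 and 12.2 in Sox1posGP (log2 fold change -4.04, SE 0.17), with 18.8, 22.5 and 20.1 in NSC and 53.2, 41.5 and 42.1 in NR. Cbs, the first, had 157, 149 and 149 CPM in Baseline, 58.2, 64.1 and 65.0 in Sox1posGP, 4.34, 5.01 and 4.39 in NSC and 46.1, 26.7 and 35.9 in NR. Thus Cth was lowest in Sox1posGP and Cbs in NSC. The list as a whole had 2 of 6 genes lower and none higher in Sox1posGP (median -0.49), 3 lower and 1 higher in NSC (-0.28) and 2 lower and 1 higher in NR (-0.01). The number higher became 1 in Sox1posGP without Baseline replicate 1, 0 in NSC without Baseline replicate 2 or 3 and 2 without NSC replicate 3, and 2 in NR without NR replicate 2 or Baseline replicate 1.

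Of 8 genes of serine and glycine use and transport 6 were lower in Sox1posGP and none higher (median -0.71), 7 were lower and 1 higher in NSC (-0.999) and 6 were lower and 2 higher in NR (-1.32). Slc6a9, a glycine transporter of glia, had 234, 230.3 and 231 CPM in Baseline, 48.9, 47.1 and 48.0 in Sox1posGP, 10.1, 11.6 and 10.5 in NSC and 11.3, 9.39 and 9.36 in NR. Slc1a4, a carrier of serine and alanine, went from 322 ± 12.95 CPM (SD, n = 3) in Baseline to 122 ± 4.46, 48.6 ± 0.857 and 42.3 ± 1.81 in the same order of groups. Srr, the serine racemase, was lower in Sox1posGP by a log2 fold change of -1.52 (SE 0.16).

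In NR against NSC 30.0% of all genes were called higher and 26.6% lower, and differences between the lists were not tested. Called higher were 6 of 6 purine genes (4 to 6 under alternatives), 6 of 8 mitochondrial folate genes (3 to 7, with 3 after thinning) and 5 of 11 cytosolic folate genes (4 to 7), with none lower and median log2 fold changes of 0.38, 0.45 and 0.235. Of the methionine list 5 of 6 were higher and none lower (median 0.75), and 3 were higher without NSC replicate 1 or 3 or NR replicate 1. Of serine and glycine use and transport 2 were higher (1 to 3 under alternatives) and 4 lower (2 to 5). The median was -0.16, and 2 were lower without NR replicate 3.

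**Figure D5:**
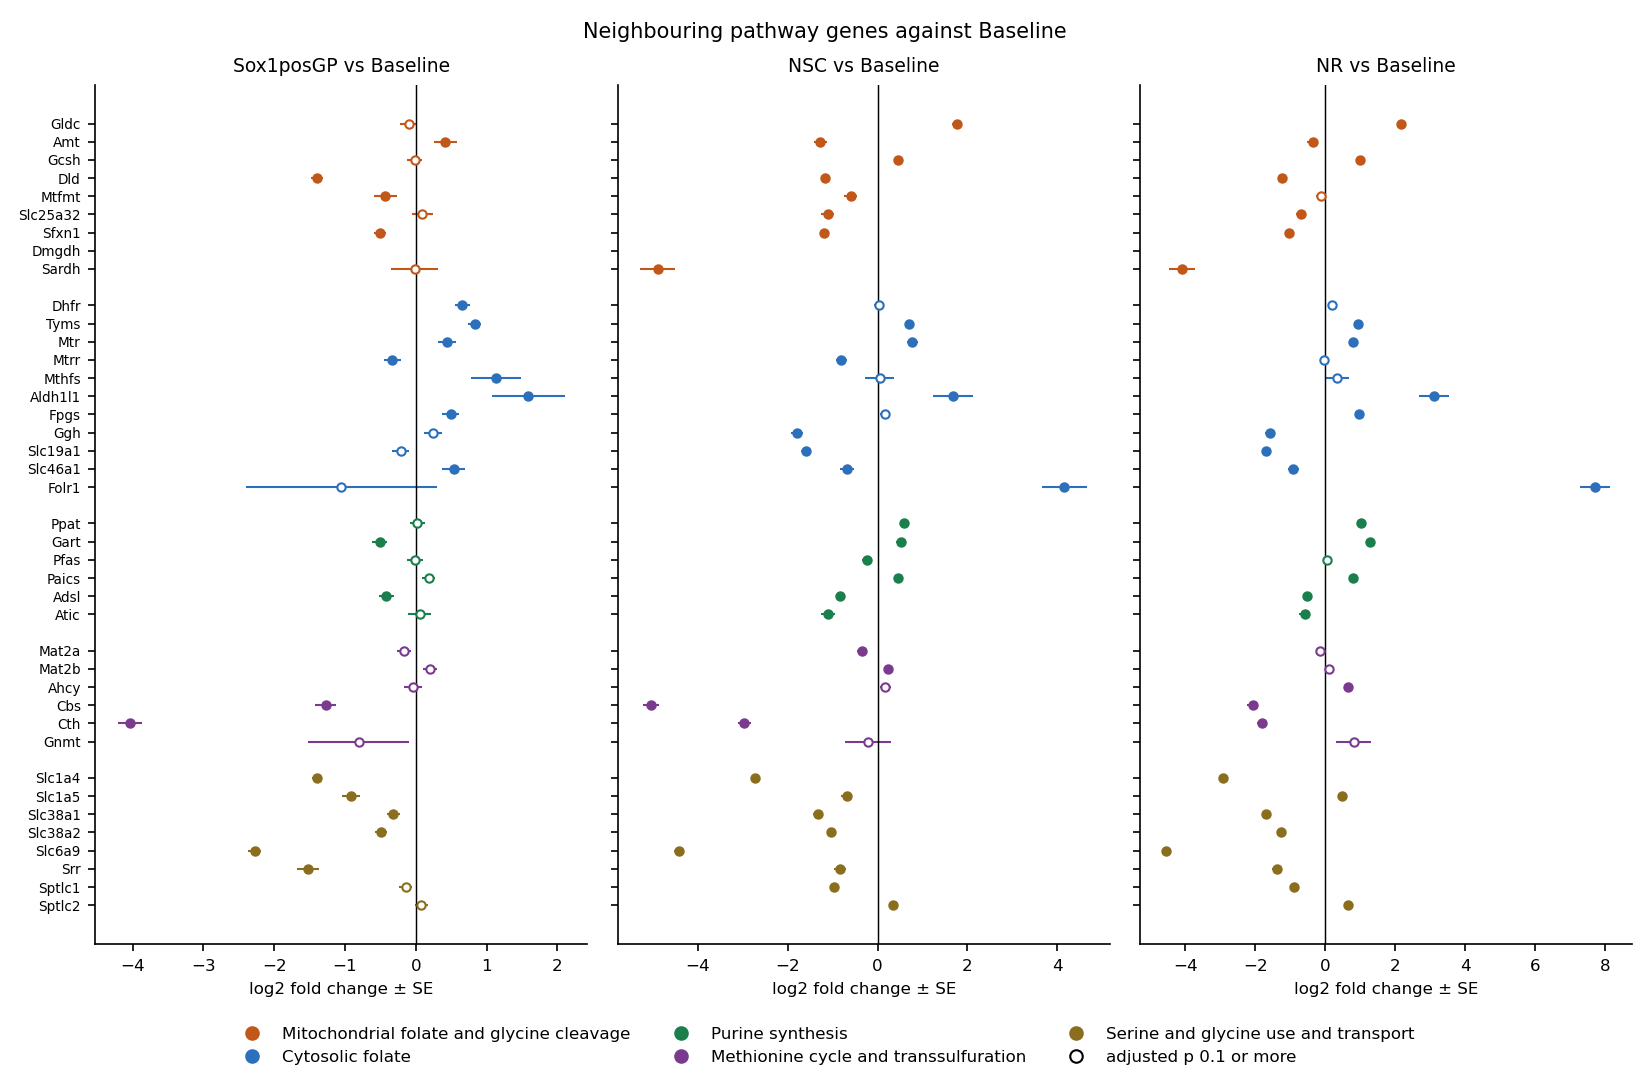
Log2 fold change (points) with its standard error (whiskers) against Baseline for 39 of the 40 genes in 5 lists around the pathway, filled where the adjusted p was under 0.1; Dmgdh was not tested. Cth lies at -4.04 in Sox1posGP, and the cytosolic folate genes lie on both sides of 0 in every panel.

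The stress response genes whose movement led to this choice are given by level alone. Together the 13 genes (Atf4, Atf5, Ddit3, Trib3, Asns, Chac1, Sesn2, Slc7a11, Slc7a5, Slc3a2, Cebpb, Nupr1, Ddit4) had 6919 ± 231 CPM (SD, n = 3) in Baseline, 1796 ± 45.2 in Sox1posGP, 1213 ± 129 in NSC and 1769 ± 188 in NR. Slc7a5 was the most abundant of them. Atf4 itself had 971, 808 and 824 CPM in Baseline, 529, 491 and 469 in Sox1posGP, 217, 235 and 219.8 in NSC and 250.1, 231 and 210.2 in NR. Asns, the asparagine synthetase, stood at 335, 327 and 332 CPM in Sox1posGP and at 590.1, 416 and 494 in NR, between the values of Baseline (1059.8, 937 and 925) and NSC (147, 153 and 143). The sums of NR and Sox1posGP overlapped, while single genes differed between these groups. Sesn2 had 226 ± 27.7 CPM in NR and 49.9 ± 8.35 in Sox1posGP, and Atf4 was the higher one in Sox1posGP. With 253 ± 12.5 CPM in Baseline and 256 ± 82.2 in NSC, Sesn2 was not called different from Baseline in NSC or NR.

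Among Myc genes, Myc had 757, 919 and 910.1 CPM in Baseline, 308, 316 and 295 in Sox1posGP, 40.6, 61.6 and 43.6 in NSC and 81.2, 77.0 and 62.8 in NR, while Mycn stood at 7.25 to 8.14 in Baseline, 6.08 to 9.58 in Sox1posGP, 249 to 369 in NSC and 215 to 245 in NR. Of 4 genes of this list 1 was higher and 2 lower in Sox1posGP, and 2 higher and 2 lower in NSC and in NR. The 2 lower genes in Sox1posGP became 1 without Baseline replicate 2 or 3 or Sox1posGP replicate 2 or 3. Of 8 cell cycle genes 3 were higher (3 to 5 under alternatives) and 3 lower in Sox1posGP than in Baseline, and their summed level was 2233 ± 76.3 CPM (SD, n = 3) against 2236 ± 167. In NSC and in NR 7 of them were higher, against 44.4% and 45.6% of all genes, and the sums were 3778 ± 33.3 and 3750.4 ± 153.

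The genes whose profile lay nearest to that of Phgdh over the 12 libraries were sought by the root mean square difference of centred log2 CPM among 9666 genes. They were Slc1a4 (0.08), the pseudogene Gm7901 (0.09), Emc7 (0.13), Sept8 (0.14) and Arhgef2 (0.17). Around Mthfd2 they were Tars (0.13), which charges threonine to its tRNA, Chchd2-ps (0.14), Bcap31 (0.14), Ndufb4 (0.14) and Clpp (0.14), so no gene lay as near to Mthfd2 as Slc1a4 did to Phgdh.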

How the data were processed

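RNA of 12 libraries, 3 per group, was prepared with SMART-Seq v4 and sequenced. The authors aligned reads to mm10 with STAR 2.6 and the deposited table gives one count per gene and library, made with RSEM 1.1.14 according to the processing notes; the strand setting and the gene annotation are not stated. All 45706 Ensembl genes were read and 45143 had a symbol. In edgeR 4.0.16 with limma 3.58.1 (R 4.3.3), genes passing filterByExpr (17003) were scaled by TMM and fitted over all libraries with one term per group, and 4 comparisons were tested by the quasi-likelihood F test. P values were adjusted by Benjamini-Hochberg over all tested genes, and a call is an adjusted p under 0.1 with no threshold on fold change. The prior count was 0.125 for fold changes and 2 for log2 CPM, and SE is the absolute log2 fold change over the square root of its F value. Lengths are summed exons of GENCODE vM21, and similar transcripts were found with blastn 2.17.0+. Tables and figures used Python 3.11.15, pandas 2.3.3 and matplotlib 3.10.9. The fits were also run on simulated data, from which no result is given here.

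The members and lists were chosen with earlier results of these data known. In each pathway list the genes named are among the 3 called genes with the largest absolute log2 fold change of a comparison; genes given by level were named for their function. The comparisons reported were not paired, and replicate number entered only as a block among the alternatives. Between NR and NSC, deviations from the group means of libraries with the same number all correlated above 0.1, at 0.2294, 0.4901 and 0.2959. But NR 3 also correlated with NSC 1 at 0.3005 and NR 1 with NSC 3 at 0.1858, so a pairing by number does not rest on the design. Alternatives were DESeq2 size factors, upper-quartile scaling, the Wald test of DESeq2 1.42.0, no filter, at least 10 counts in every library, the replicate number as a block, fits of only the groups compared, an adjusted p under 0.05, thinning to the smallest total, another prior count for differences between paralogs and leaving out each library. One gene of the cytosolic folate list is not reported here, and the counts and medians of that list are over the other 11. Set tests were left out because the choice of genes followed from these data.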

Additional observations from a re-analysis of the deposited data

How the results depend on the processing

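Of 600 member fold changes under alternatives, 559 kept their direction and their side of the threshold, 22 became weaker, 9 stronger and 10 reversed. All reversals were of Mthfd1 in Sox1posGP against Baseline, where the log2 fold change was -0.00 with all libraries: 0.0313 with DESeq2 size factors, 0.0635 with upper-quartile scaling, 0.0316 with the DESeq2 Wald test, 0.0023 without a filter, 0.0681 with at least 10 counts per library, 0.0419 in a fit of only these groups, 0.0333 after thinning to the smallest library, and -0.0473 to 0.0585 when single libraries were left out; it passed in none of them. For list genes, unlike members, a change of sign counted as reversed only where either fit called the gene. A change of sign with no call in either fit counted as stayed. By this rule, of 5266 fold changes of list genes, 5053 stayed, 123 became weaker, 88 stronger and 2 reversed. Those were Sesn2 in NSC against Baseline, -0.2863 to 0.1518 when single libraries were left out (-0.2863 without NSC replicate 2), and Ddit4 in NR against NSC, -0.4038 to 0.4143 (0.4143 without NSC replicate 2).

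The 1 member called higher in Sox1posGP against Baseline became 2 with upper-quartile scaling, with at least 10 counts per library and in a fit of only these groups, 0 at an adjusted p under 0.05, and 0 to 1 when libraries were left out. The 2 called higher in NR against Baseline became 1 without a filter, in a fit of only these groups, after thinning and at an adjusted p under 0.05, and 1 to 2 when libraries were left out. The 1 called lower in NR against NSC became 2 without a filter and in a fit of only these groups, and 1 to 2 when libraries were left out. With at least 10 counts in every library fewer genes are tested, and genes called higher were 4282 in NSC and 4339 in NR against Baseline and 3354 in NR against NSC, instead of 7546, 7757 and 5108. The cause of the other shifts was not tested.

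With the replicate number as a block no member call changed: 1 member higher and 7 lower in Sox1posGP, 1 and 8 in NSC, 2 and 8 in NR against Baseline, and 7 and 1 in NR against NSC, while Mthfd1 in Sox1posGP turned to 0.0012. Genes called higher and lower under the block were 3702 and 3816, 7600 and 5784, 7760 and 5824, and 5328 and 4698 in that order. Libraries with the same number correlated at 0.0236, 0.0082 and 0.0198 between Sox1posGP and Baseline, at -0.0472, -0.0404 and -0.0281 between NSC and Baseline, and at 0.0475, 0.0138 and 0.0240 between NR and Baseline, where each NR library correlated best with its own number. These correlations are a hint from the data and not from the design.

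Depth limits genes of a few counts, such as Folr1, Aldh1l1 and Mthfs, in Baseline and Sox1posGP. Transcript levels say nothing about enzyme amounts, flux or metabolites, which were not measured. Cells in culture with growth factors stand for progenitors only within these lines. Cell makeup, drug selection, and sorting, neural induction or culture where groups differ in them cannot be separated from the group differences. Which line gave which library is not stated, and the replicates are 3 per group. Adjusted p values therefore need not measure variation between lines. All groups were fitted together, although the spread between replicates was unequal among them.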
